A study of Mus musculus with 10 samples.

Results

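S100 proteins are small calcium-binding proteins that work mostly as dimers inside the cell, where they bind and modulate partner proteins, and some of them also act outside it. Each subunit carries a pair of EF-hands, the helix-loop-helix folds that hold calcium, and calcium opens a surface that grips annexins, myosin heavy chains and other partners. In epithelia they are known for roles in the cytoskeleton, in membrane repair and in secretion, and S100a4, also called fibroblast-specific protein, is widely used as a marker of the epithelial-mesenchymal transition. The genes described here are the 8 S100 genes S100a1, S100a4, S100a6, S100a10, S100a11, S100a13, S100a14 and S100a16. They were taken by symbol from the 24454 genes of the count table, and were chosen with earlier results of these data known. The table holds 18 S100 genes in all. All 8 passed the filter on low counts and were among the 13135 genes tested.

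The cells were NMuMG/E9, a subclone of a mouse mammary gland epithelial line, so that every library came from 1 clone. They had been transfected with siRNA at 20 nM, either against Irf1, an interferon-regulated transcription factor, or a control siRNA, here called siIrf1 and siCtr. TGFbeta, the growth factor used to start the epithelial-mesenchymal transition, was recombinant human TGFbeta1 at 2 ng/ml and was present for 2 d. The 10 RNA-seq libraries fall into siIrf1 with TGFbeta (3 libraries), siCtr with TGFbeta (2 libraries), siIrf1 without TGFbeta (3 libraries) and siCtr without TGFbeta (2 libraries), the groups without it being labelled 0 d. All 4 groups had been transfected and were harvested 3 d after transfection, so that 0 d refers to the time with TGFbeta. Cells with no siRNA were not analysed here. The study asked what Irf1 does in epithelial cells and during the transition.

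Libraries held 27547649 to 67301646 counts. Irf1 was at 36.5 to 46.2 CPM (counts scaled to library size with TMM) in siIrf1 cells with TGFbeta, against 106 to 112 CPM in siCtr cells with TGFbeta, and at 56.4 to 64.1 CPM in siIrf1 cells at 0 d, against 129 to 148 CPM in siCtr cells at 0 d. The 8 epithelial markers listed (Krt8, Krt18, Cdh1 and others) summed to 6929 to 12116 CPM in siIrf1 TGFbeta, 13699 to 14681 in siCtr TGFbeta, 8227 to 9433 in siIrf1 0 d and 9334 to 10730 in siCtr 0 d. They did not move together. From siCtr 0 d to siCtr TGFbeta, mean CPM rose for Krt7 (146 to 1001), Krt8 (2908 to 4981) and Krt18 (3900 to 7549). It fell for Krt19 (2438 to 307) and Cdh1 (640 to 351). Of the 8, Epcam and Cldn3 were at 0 in every group but siIrf1 TGFbeta, where neither passed 0.0295 CPM in any library. The 6 fibroblast markers summed to 27.1 to 31.4 CPM in siIrf1 TGFbeta, 34.4 to 38.9 in siCtr TGFbeta, 0.837 to 0.976 in siIrf1 0 d and 0.424 to 0.589 in siCtr 0 d. Lum was at 0 in all groups and Col3a1 in all but siIrf1 0 d, where it did not pass 0.0264 CPM in any library. The labels do not say that libraries of a group came from separate cultures, so p-values here reflect only how far these libraries scatter, and that scatter may be technical. In bulk RNA, fewer cells of a kind and less RNA per cell cannot be told apart.

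All 8 genes lie on mouse chromosome 3 (GRCm38.p6 coordinates from RefSeq). From the low end, S100a1 lies on the minus strand at 90511034 to 90514330, and the others are on the plus strand. They are S100a13 at 90514233 to 90524581, S100a14 at 90526849 to 90528837, S100a16 at 90537254 to 90543151, S100a4 at 90603770 to 90606045, S100a6 at 90612894 to 90614414, S100a11 at 93520496 to 93526288 and S100a10 at 93555117 to 93564645. By these spans, S100a1 and S100a13 overlap by 98 bases on opposite strands. Their GENCODE spans do not overlap, as S100a1 ends at 90514392 and S100a13 begins at 90514435. In GENCODE, S100a4 shares 302 of its 584 exon bases with Gm42674 on the same strand. Whether counting used strand is not given in the sources used here, so reads from the overlap of S100a1 and S100a13 may have been shared. Strand could not separate reads of S100a4 from those of Gm42674, and how such reads were counted is not given either.

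The sequences before 2 of the starts are shown because S100a4 and S100a6 are the members whose levels differed most between groups. The third is the stretch between the S100a1 start and an S100a13 start at 90514435, from which the genes are read in opposite directions. The S100a13 span given above begins earlier, at 90514233, so the stretch lies within that span. The sequences are from RefSeq (GRCm38.p6), 5′ to 3′ on the plus strand, in lower case. Capitals mark TATAAA, a match to the TATA box, whose first base is 31 bases before the S100a4 start.
S100a4, chr3:90603520-90603769: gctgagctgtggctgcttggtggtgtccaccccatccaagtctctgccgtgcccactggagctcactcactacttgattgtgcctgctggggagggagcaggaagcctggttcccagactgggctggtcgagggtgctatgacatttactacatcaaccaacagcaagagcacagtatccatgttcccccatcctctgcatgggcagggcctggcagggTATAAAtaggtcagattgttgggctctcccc
S100a6, chr3:90612644-90612893: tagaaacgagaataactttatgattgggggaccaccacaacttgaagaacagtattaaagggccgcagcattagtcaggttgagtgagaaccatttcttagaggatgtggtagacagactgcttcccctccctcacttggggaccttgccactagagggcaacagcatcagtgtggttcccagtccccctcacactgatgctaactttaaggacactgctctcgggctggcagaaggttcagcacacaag
S100a1 and S100a13, chr3:90514331-90514434: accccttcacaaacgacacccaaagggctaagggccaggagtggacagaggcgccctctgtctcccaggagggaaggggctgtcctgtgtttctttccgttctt
TATAAA occurs, on either strand, in 13.6% of 32851 mouse promoter windows of 300 bases (250 before to 50 after the start). RefSeq windows were matched for 6 of the 8 members, 7 windows in all, and S100a10 and S100a14 were not in the table. The S100a1 and S100a13 windows share 204 bases. Searched on both strands were TGANTCA (AP-1), GTCTAGAC and CAGACA (SMAD), the interferon response motif bound by IRF factors, CACCTG (the E-box of ZEB and Snail factors) and CATTCC (TEAD), which occur in 7.81%, 0.213%, 21%, 3.44%, 20.2% and 14.7% of all windows. The S100a11 window holds TGAGTCA at 2 places, 136 and 38 bases before the start. One S100a16 window holds CAGGTG, the reverse complement of CACCTG, 203 bases before its start, and the other holds TGAATCA 192 bases before its start. These 6 motifs have no match in the windows of S100a1, S100a4, S100a6 and S100a13, which says only that those letters are not there.

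Per length, S100a6 was the top gene of all 24454 in TPM (counts divided by gene length and scaled to the library) in each of the 4 group means. S100a6, or calcyclin, is linked to proliferation and binds the calcyclin-binding protein Cacybp. Its mean was 12830 TPM in siIrf1 TGFbeta, 16242 in siCtr TGFbeta, 13632 in siIrf1 0 d and 30294 in siCtr 0 d. S100a11, which binds annexin A1, averaged 4094, 4674, 3184 and 3880 TPM in the same groups. S100a10, which forms a complex with annexin A2 and no longer needs calcium to do so, averaged 3197, 2329, 2627 and 2385 TPM. S100a4, which binds non-muscle myosin, averaged 652, 1205, 379 and 1251 TPM. The other members lay lower. S100a1, best known from heart muscle, averaged 213 to 285 TPM over the groups, S100a16 145 to 214 TPM, S100a13, which takes part in the release of Fgf1, 90.8 to 170 TPM, and the epithelial gene S100a14 9.88 to 13.5 TPM. The order of members was the same in the groups except in siIrf1 0 d, where the mean of S100a16 was the higher and that of S100a1 the lower of the 2. Neighbours in this order overlapped for S100a1 (198 to 260 TPM) and S100a16 (172 to 225 TPM) in siIrf1 TGFbeta, for S100a1 (196 to 244 TPM) and S100a16 (199 to 240 TPM) in siIrf1 0 d, and for S100a16 (166 to 200 TPM) and S100a13 (153 to 187 TPM) in siCtr 0 d. All other neighbours were apart in every group.

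**Figure D1:**
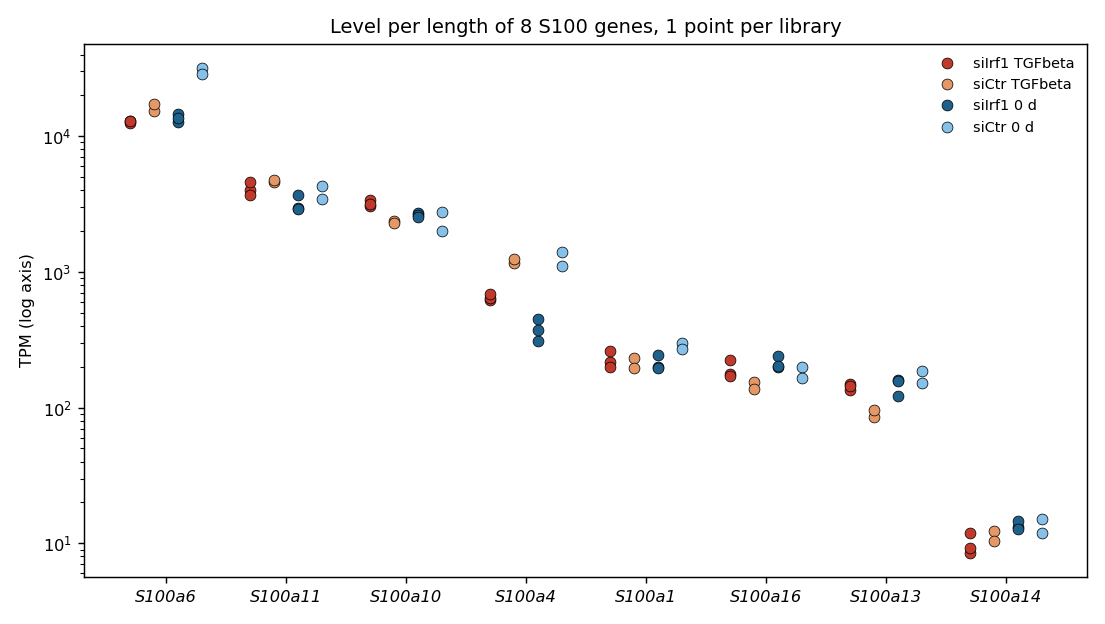
Level of each S100 gene in TPM on a log axis, 1 point per library, by group, with siIrf1 TGFbeta first. S100a6 stands above the others in every library, and S100a14 lies at 9.88 to 13.5 TPM by group mean.

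The 8 genes together took 0.585 to 0.633% of the counts in siIrf1 TGFbeta libraries, 0.659 to 0.724% in siCtr TGFbeta, 0.593 to 0.641% in siIrf1 0 d and 1.10 to 1.28% in siCtr 0 d. The siCtr 0 d libraries stand apart from the other 8. S100a6 made up 64.6 to 66.1%, 69.5 to 71.9%, 68.2 to 72.5% and 81.4 to 83.6% of those counts in the same group order.

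S100a6 was lower with TGFbeta in siCtr cells, and lower in siIrf1 than in siCtr cells at 0 d. It had 3857, 3996 and 3646 CPM in siIrf1 TGFbeta, 4773 and 5460 CPM in siCtr TGFbeta, 4557, 3855 and 4225 CPM in siIrf1 0 d, and 11283 and 9349 CPM in siCtr 0 d. The siCtr 0 d libraries lay far above all others, and siIrf1 TGFbeta and siIrf1 0 d overlapped. With TGFbeta, S100a6 fell in siCtr cells by 1.01 ± 0.162 on the log2 scale (SE; n = 2 against 2; fold 0.496; edgeR quasi-likelihood test with Benjamini-Hochberg adjustment, adjusted p = 0.000946). Between the siCtr libraries of replicate 3, the only number that both siCtr groups hold, the change was -0.78. In siIrf1 cells the change was -0.14 ± 0.131 (edgeR adjusted p = 0.545). Against siCtr, siIrf1 cells at 0 d were lower by a log2 fold change of -1.29 ± 0.144 (n = 3 against 2, fold 0.408, edgeR adjusted p = 0.000499). Both called differences rest on the same pair of siCtr 0 d libraries. With TGFbeta the difference was -0.42 ± 0.145 (edgeR adjusted p = 0.0744), with no overlap of libraries, and without siCtr 0 d replicate 1 or replicate 3 it was -0.47 (edgeR adjusted p = 0.0429 and 0.0411). With a length and GC trend removed the change with TGFbeta in siCtr cells was -0.51.

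S100a4 was lower in siIrf1 cells than in siCtr cells both without and with TGFbeta, and higher with TGFbeta in siIrf1 cells. It had 130, 141 and 134 CPM in siIrf1 TGFbeta, 252 and 275 CPM in siCtr TGFbeta, 98.4, 65.7 and 80.2 CPM in siIrf1 0 d, and 345 and 249 CPM in siCtr 0 d. Every siIrf1 library lay below every siCtr library. At 0 d the log2 fold change of siIrf1 against siCtr was -1.87 ± 0.194 (SE; n = 3 against 2; fold 0.274; edgeR adjusted p = 0.000373), and with TGFbeta it was -0.96 ± 0.193 (fold 0.513, edgeR adjusted p = 0.00778). Between libraries of the same replicate number it was -1.81 and -1.63 at 0 d, and -0.84 and -1.03 with TGFbeta. TGFbeta raised S100a4 in siIrf1 cells by 0.73 ± 0.176 (n = 3 against 3, fold 1.66, edgeR adjusted p = 0.0130), with 0.41, 1.10 and 0.74 between same-numbered libraries. In siCtr cells the TGFbeta difference was -0.17 ± 0.214 (edgeR adjusted p = 0.562), the groups overlapped, and the sign turned to 0.23 with a length and GC trend removed. The sum of the fibroblast markers given above was lowest in siCtr 0 d, where S100a4 had 249 to 345 CPM. It was highest in siCtr TGFbeta, where S100a4 had 252 to 275 CPM. In siIrf1 cells the sum and S100a4 were both higher with TGFbeta. The part of these markers in the result was not tested. Without siCtr TGFbeta replicate 3 the difference with TGFbeta was -0.94 (edgeR adjusted p = 0.0587), and without siIrf1 0 d replicate 3 the TGFbeta change in siIrf1 cells was 0.72 (edgeR adjusted p = 0.0536).

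**Figure D2:**
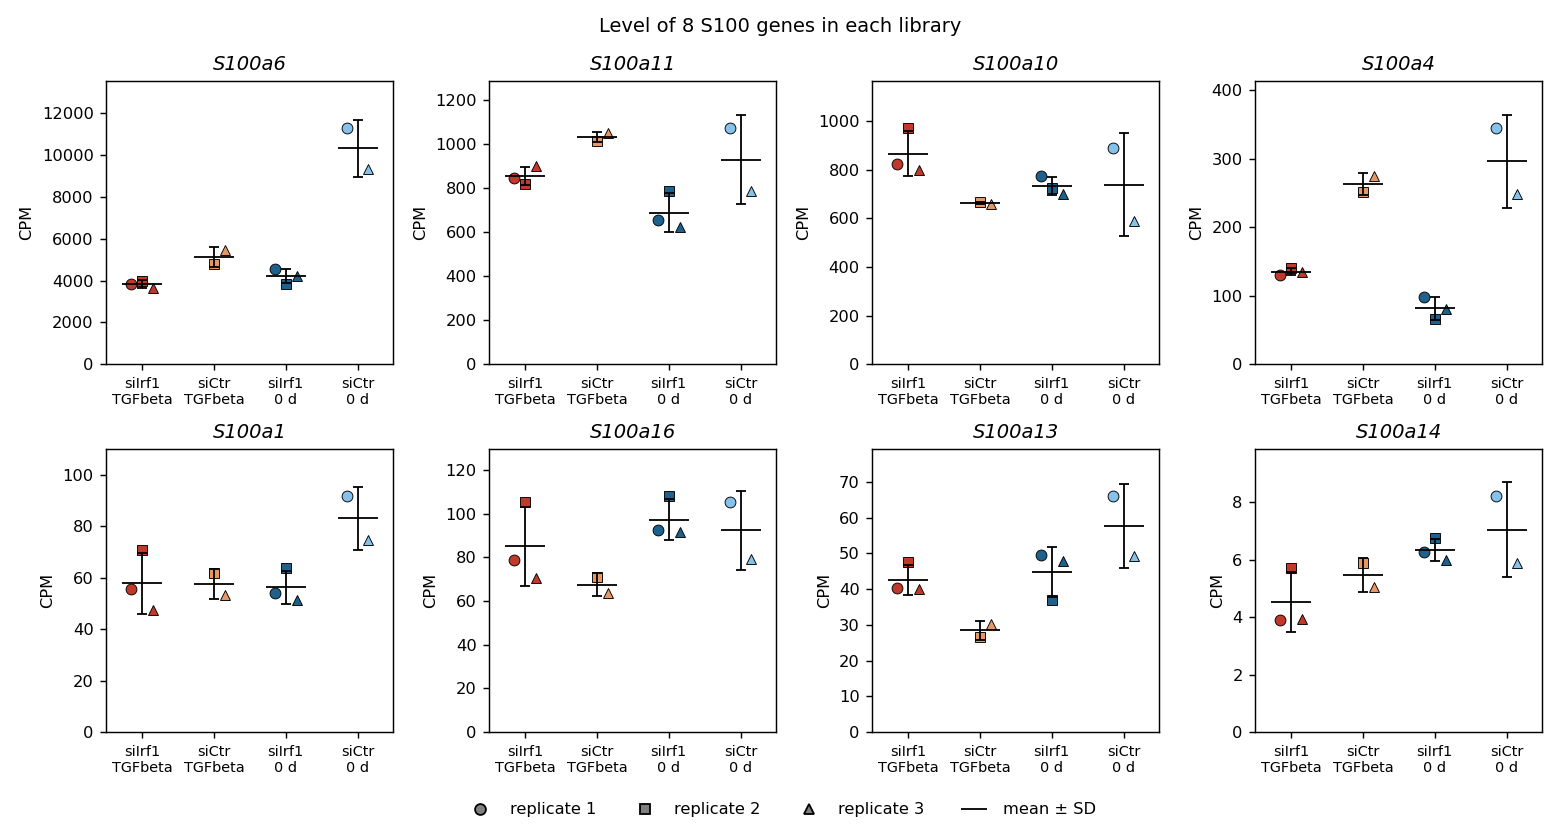
CPM of the 8 S100 genes in each library, by group, with the mean and SD of each group as a line and bars and axes from 0. S100a6 is at 9349 and 11283 CPM in siCtr 0 d and at 3646 to 5460 CPM elsewhere, and S100a4 is at 65.7 to 141 CPM in siIrf1 and at 249 to 345 CPM in siCtr libraries.

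Both annexin partners, S100a10 and S100a11, missed the threshold in every comparison as fitted. S100a11 had 846, 818 and 898 CPM in siIrf1 TGFbeta, 1015 and 1049 CPM in siCtr TGFbeta, 654, 787 and 625 CPM in siIrf1 0 d, and 1071 and 786 CPM in siCtr 0 d. Libraries with TGFbeta were above those at 0 d in siIrf1 cells without overlap, and the log2 difference was 0.31 ± 0.149 (SE; n = 3 against 3; edgeR adjusted p = 0.186). In siIrf1 against siCtr cells it was -0.43 ± 0.166 at 0 d, with overlap (edgeR adjusted p = 0.0704), and -0.27 with TGFbeta, without overlap (edgeR adjusted p = 0.305). At 0 d it was -0.54 without siIrf1 0 d replicate 2 (edgeR adjusted p = 0.0453) and -0.57 without siCtr 0 d replicate 3 (edgeR adjusted p = 0.0330). S100a10 had 825, 971 and 801 CPM in siIrf1 TGFbeta, 667 and 659 CPM in siCtr TGFbeta, 774, 726 and 701 CPM in siIrf1 0 d, and 887 and 589 CPM in siCtr 0 d. The siIrf1 TGFbeta libraries were the higher ones in both of their comparisons, by 0.38 ± 0.182 against siCtr TGFbeta (edgeR adjusted p = 0.183) and by 0.24 ± 0.161 against siIrf1 0 d (edgeR adjusted p = 0.362). At 0 d the difference between siIrf1 and siCtr for S100a10 was -0.01, with a 95% interval of -0.41 to 0.39.

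S100a13 was lower with TGFbeta in siCtr cells. It had 40.4, 47.5 and 40.0 CPM in siIrf1 TGFbeta, 26.6 and 30.3 CPM in siCtr TGFbeta, 49.6, 36.9 and 47.9 CPM in siIrf1 0 d, and 66.0 and 49.3 CPM in siCtr 0 d. The siCtr TGFbeta libraries were below all others. The log2 change with TGFbeta was -1.02 ± 0.219 in siCtr cells (SE; n = 2 against 2; fold 0.493; edgeR adjusted p = 0.00558) and -0.07 in siIrf1 cells (edgeR adjusted p = 0.840). Between the siCtr libraries of replicate 3, the only number that both siCtr groups hold, the TGFbeta change was -0.70. With TGFbeta, siIrf1 cells were above siCtr cells by 0.59 ± 0.202 without overlap (edgeR adjusted p = 0.0721). Without siCtr TGFbeta replicate 2 the change in siCtr cells was -0.83 (edgeR adjusted p = 0.0911), and without siCtr 0 d replicate 1 it was -0.75 (edgeR adjusted p = 0.0659). S100a1, whose RefSeq span overlaps that of S100a13, had 47.4 to 70.5 CPM in siIrf1 TGFbeta and 53.3 to 61.7 CPM in siCtr TGFbeta. At 0 d it had 51.4 to 63.6 CPM in siIrf1 and 74.4 to 91.6 CPM in siCtr cells. Both siCtr 0 d libraries lay above all others. S100a1 was at -0.53 ± 0.222 with TGFbeta in siCtr cells (edgeR adjusted p = 0.0929) and at -0.56 ± 0.200 in siIrf1 against siCtr cells at 0 d (edgeR adjusted p = 0.0560). With the replicate number as a block these became -0.63 (edgeR adjusted p = 0.0260) and -0.66 (edgeR adjusted p = 0.0129), and without siIrf1 TGFbeta replicate 2 they were -0.53 (edgeR adjusted p = 0.0446) and -0.56 (edgeR adjusted p = 0.0246). Without siIrf1 TGFbeta replicate 3 the difference at 0 d had edgeR adjusted p = 0.0408.

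S100a16, a widely expressed member, and S100a14 missed the threshold in every comparison as fitted. S100a16 had 70.7 to 105 CPM in siIrf1 TGFbeta, 63.8 to 71.1 CPM in siCtr TGFbeta, 91.4 to 108 CPM in siIrf1 0 d, and 79.4 to 105 CPM in siCtr 0 d. Its siCtr TGFbeta libraries lay below its siCtr 0 d libraries, at a log2 difference of -0.45 ± 0.222 (SE; n = 2 against 2; edgeR adjusted p = 0.144). S100a14 had 3.90 to 5.72 CPM in siIrf1 TGFbeta, 5.06 to 5.90 CPM in siCtr TGFbeta, 5.99 to 6.74 CPM in siIrf1 0 d, and 5.88 to 8.21 CPM in siCtr 0 d. Its TGFbeta difference was -0.48 ± 0.221 in siIrf1 cells, where the groups did not overlap (edgeR adjusted p = 0.165; 0.0394 at a difference of -0.69 without siIrf1 TGFbeta replicate 2), and -0.36 ± 0.271 in siCtr cells (edgeR adjusted p = 0.334).

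Counted over the members, TGFbeta in siCtr cells changed 2 of 8 genes, S100a6 and S100a13, both downward. Over all genes tested, 32.5% were called in that comparison, 16.1% upward and 16.3% downward, and in 71.9% the libraries did not overlap, as in 4 members. In siIrf1 cells TGFbeta changed 1 of 8, S100a4, upward. There 21.3% of all genes were called, 11.6% upward and 9.71% downward, and 35.8% did not overlap, as in 4 members. For siIrf1 against siCtr at 0 d, 2 of 8, S100a4 and S100a6, fell, where 31.8% of all genes were called, 16.3% upward and 15.5% downward, and 62.3% did not overlap, as in 3 members. For siIrf1 against siCtr with TGFbeta, 1 of 8, S100a4, fell, where 18.0% of all genes were called, 9.72% upward and 8.28% downward, and 46.3% did not overlap, as in 5 members. With 1 or 2 of 8 called, these counts lie near the shares of all genes, and no difference from them is read here. The median log2 fold change of the members was -0.40 for TGFbeta in siCtr cells, -0.02 for TGFbeta in siIrf1 cells, -0.40 for siIrf1 at 0 d and -0.13 for siIrf1 with TGFbeta. Over all genes tested it was 0.02, 0.02, -0.03 and 0.05 in that order.

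**Figure D3:**
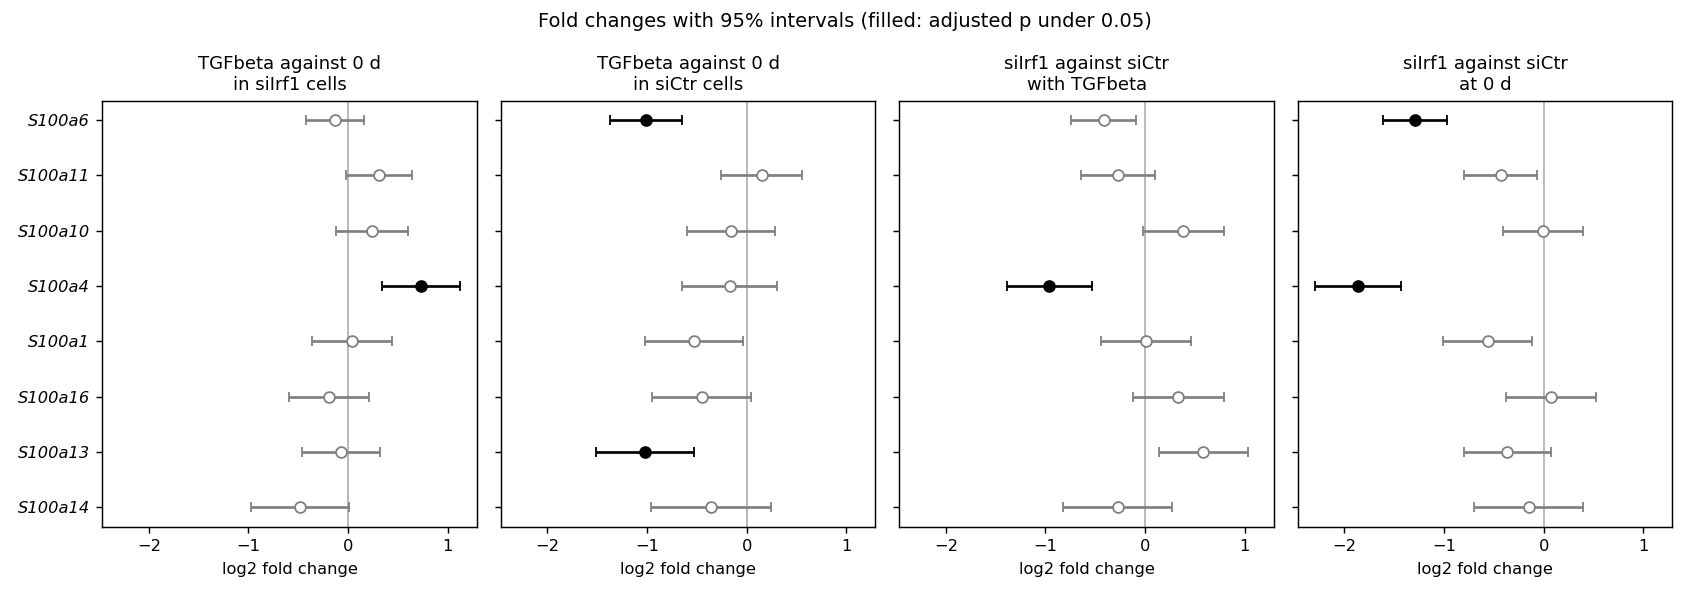
Log2 fold change of each S100 gene with its 95% interval in the 4 comparisons, filled where the edgeR adjusted p is under 0.05. S100a4 is at -1.87 and -0.96 in the siIrf1 comparisons, and S100a6 is at -1.29 for siIrf1 at 0 d and -1.01 for TGFbeta in siCtr cells.

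Whether the response to TGFbeta differed between siIrf1 and siCtr cells was tested by the interaction, the log2 TGFbeta change in siIrf1 cells minus that in siCtr cells. It was called for a single member, S100a6, upward, where 4.12% of all genes were called, 2.80% upward and 1.32% downward. For S100a6 it was 0.88 ± 0.207 (SE; edgeR adjusted p = 0.0451), with a TGFbeta change of -0.14 in siIrf1 and -1.01 in siCtr cells. That call was lost without each of 9 of the 10 libraries in turn (all but siCtr 0 d replicate 3), down to 0.69 with edgeR adjusted p = 0.332 without siCtr TGFbeta replicate 2 and 0.69 with edgeR adjusted p = 0.207 without siCtr 0 d replicate 1. It was also lost with the replicate block (0.79, edgeR adjusted p = 0.0825) and with a length and GC trend removed (0.61, edgeR adjusted p = 0.0803). For S100a13 the interaction was 0.95 ± 0.281 (edgeR adjusted p = 0.102) and for S100a4 0.90 ± 0.277 (edgeR adjusted p = 0.113). The other 5 members were between -0.12 and 0.57, with edgeR adjusted p of 0.332 to 0.877. The members' median was 0.48, against 0.03 over all genes tested, and 7 of 8 were above 0. With a length and GC trend removed the members' median was 0.20, where the median shift over all genes was -0.09. The share of all genes above 0 was not counted, and no difference from it is read here.

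S100 transcripts are short, and library composition by length differed between groups. The members are 499 to 1095 bases long, against a median of 2843 bases over the genes tested, so that 1.50 to 9.77% of those genes are shorter. An index of length, the mean log2 CPM deviation of genes of up to 1782 bases minus that of genes of at least 4363 bases, was -0.38, 0.12 and -0.52 in siIrf1 TGFbeta, -0.17 and -0.10 in siCtr TGFbeta, 0.08, 0.04 and -0.02 in siIrf1 0 d, and 0.70 and 0.25 in siCtr 0 d. The siCtr 0 d libraries, where most members were highest, were the ones richest in short genes. The like index of low minus high GC content was 0.65, -0.39 and 0.76 in siIrf1 TGFbeta, -0.45 and -0.45 in siCtr TGFbeta, 0.73, 0.19 and 0.92 in siIrf1 0 d, and -1.35 and -0.61 in siCtr 0 d. With a smooth trend on length and GC content removed, the members' median for TGFbeta in siCtr cells became 0.03, and S100a6 was at -0.51 ± 0.151 (edgeR adjusted p = 0.0198) and S100a13 at -0.57 ± 0.215 (edgeR adjusted p = 0.0551). In the same fit S100a11 was at 0.58 (edgeR adjusted p = 0.0211), against 0.15 as fitted. S100a10 was at 0.36 (edgeR adjusted p = 0.0380), of the other sign than as fitted. For siIrf1 at 0 d the trend moved the median of all genes by 0.13 and that of the members to -0.03. There S100a4 was at -1.75 and S100a6 at -0.94, both called, and S100a10 (0.33) and S100a16 (0.56) were called as higher. With TGFbeta, siIrf1 against siCtr had S100a4 at -0.93, and S100a10 (0.46), S100a13 (0.71) and S100a16 (0.45) were called as higher. For TGFbeta in siIrf1 cells S100a4 was at 1.05, S100a11 at 0.63 and S100a10 at 0.49, all 3 called. The part of length and GC content in the differences was not tested beyond these values.

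**Figure D4:**
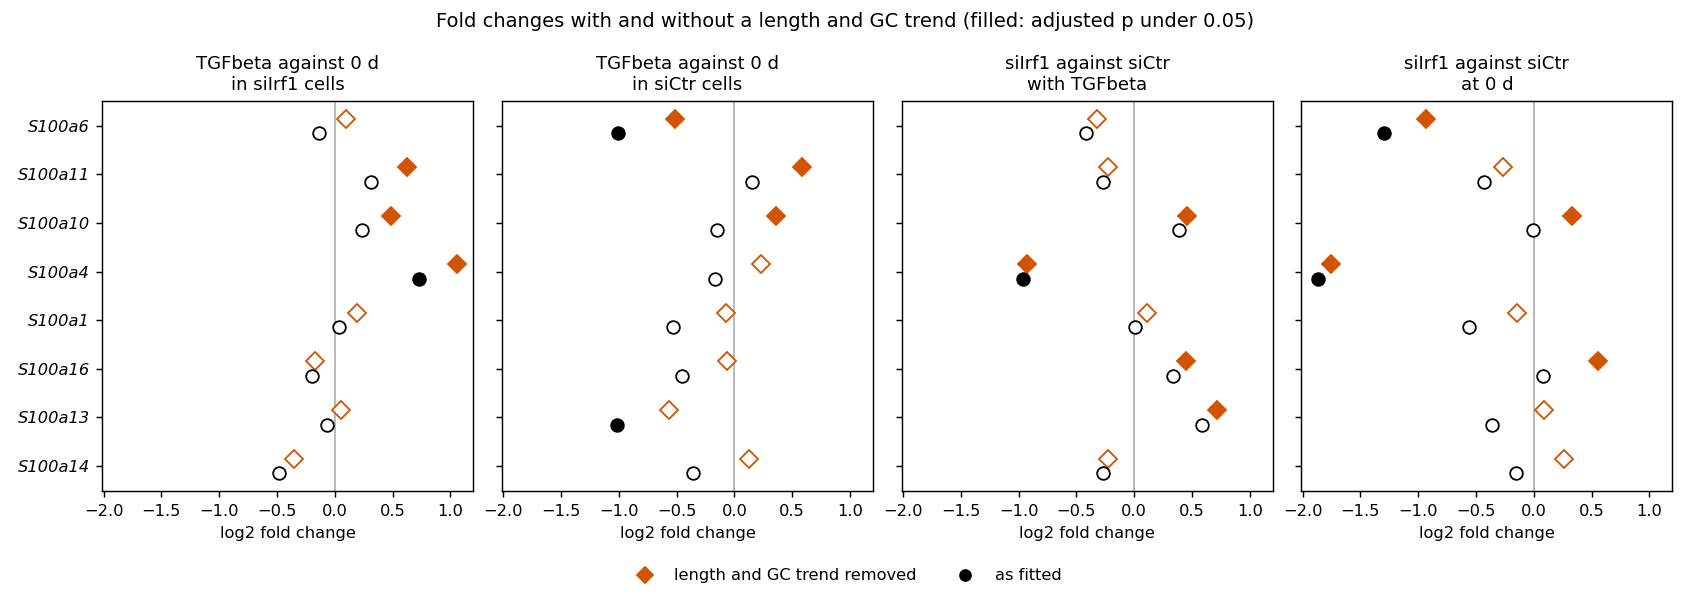
Log2 fold change of each S100 gene as fitted (circles) and with a length and GC trend removed (diamonds), filled where the edgeR adjusted p is under 0.05. For TGFbeta in siCtr cells the members' median is -0.40 as fitted and 0.03 with the trend removed.

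Of 12 other genes listed for the S100 family and its relatives, 11 were in the table and 9 were tested. TGFbeta changed 4 of the 9 in siCtr cells, 1 upward and 3 downward, where 32.5% of all genes were called, and 4 in siIrf1 cells, also 1 upward and 3 downward, where 21.3% were called. In both it was S100a7a upward and S100a8, S100a9 and S100g downward. S100a8, a partner of S100a9 in the calprotectin of neutrophils, had 1.98, 1.34 and 1.99 CPM in siIrf1 TGFbeta, 3.26 and 4.00 CPM in siCtr TGFbeta, 9.14, 4.82 and 6.59 CPM in siIrf1 0 d, and 62.8 and 34.9 CPM in siCtr 0 d. No pair of groups overlapped. With TGFbeta it fell in siCtr cells by 3.75 ± 0.403 on the log2 scale (edgeR adjusted p = 8.39e-05), and at 0 d siIrf1 cells were at -2.83 ± 0.332 against siCtr cells. S100a9 had 2, 3 and 0 counts in siIrf1 TGFbeta, 3 and 1 in siCtr TGFbeta, 18, 10 and 11 in siIrf1 0 d, and 91 and 69 in siCtr 0 d. The neutrophil and myeloid genes Ly6g and Itgam were at no more than 0.283 and 0.242 CPM in any library. The immune list summed to 42.3 to 58.2 CPM in siIrf1 TGFbeta and 38.8 to 41.0 in siCtr TGFbeta. At 0 d the sum was 39.9 to 46.5 CPM in siIrf1 and 27.9 to 36.2 in siCtr cells. Csf1r, another myeloid gene of that list, averaged 46.8, 33.1, 39.9 and 29.7 CPM in the same group order. Cd68, also myeloid, had group means of 1.38 to 6.29 CPM, the highest in siCtr TGFbeta. A myeloid source of S100a8 and S100a9 was not tested. S100g, or calbindin-D9k, a vitamin D-induced calcium buffer of the intestine, had 2.33, 3.15 and 3.61 CPM in siIrf1 TGFbeta, 0.540 and 0.933 CPM in siCtr TGFbeta, 24.9, 21.5 and 29.6 CPM in siIrf1 0 d, and 29.9 and 30.9 CPM in siCtr 0 d. The TGFbeta change was -3.06 ± 0.250 in siIrf1 and -5.40 ± 0.352 in siCtr cells, and with TGFbeta siIrf1 cells were higher by 2.08 ± 0.309 (edgeR adjusted p = 0.00178). The interaction was 2.34 ± 0.395 for S100g (edgeR adjusted p = 0.00977), the 1 gene of the 9 called there, where 4.12% of all genes were called. S100b, a glial gene, had 12, 15 and 13 counts in siIrf1 0 d and 0 and 1 in siCtr 0 d, a ratio per effective library of 20.5 with a counting interval of 3.48 to 830. S100a7a, of the psoriasin group, had 10.0 to 12.9 CPM in siIrf1 TGFbeta, 8.54 to 9.96 CPM in siCtr TGFbeta, 4.16 to 9.17 CPM in siIrf1 0 d, and 3.03 to 4.16 CPM in siCtr 0 d. It was the gene that rose with TGFbeta, by 0.94 ± 0.290 in siIrf1 (edgeR adjusted p = 0.0439) and 1.36 ± 0.365 in siCtr cells (edgeR adjusted p = 0.0168), and was named after its values were seen. S100a3, a hair cuticle gene, lay at 15.8 to 27.3 CPM and missed the threshold in every comparison.

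**Figure D5:**
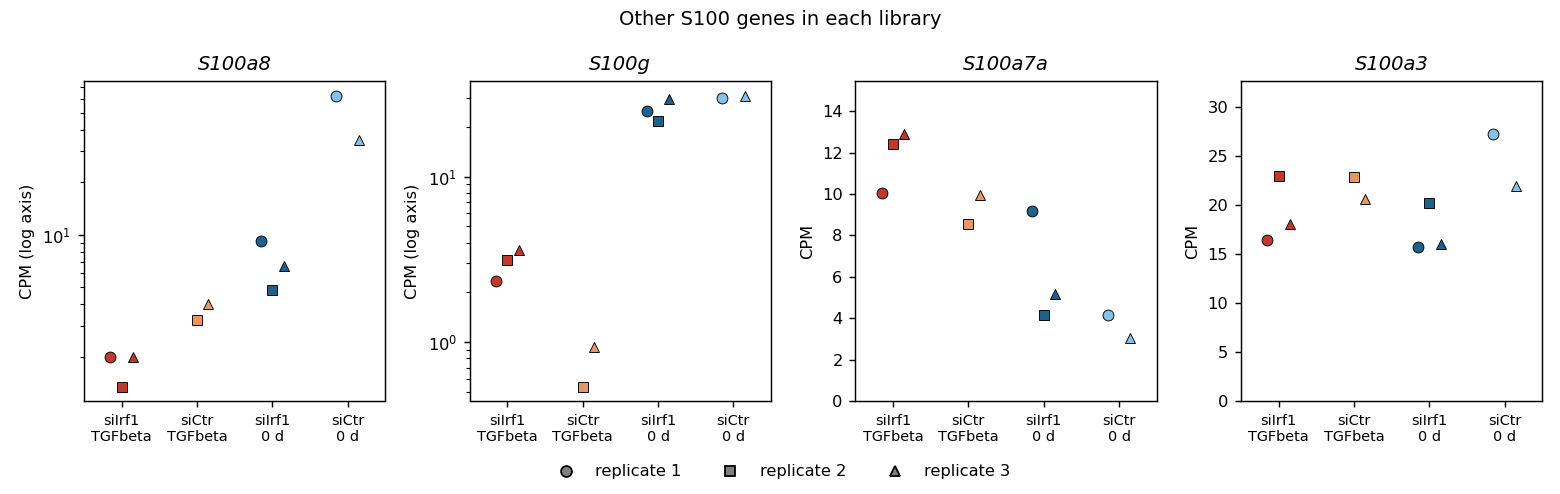
CPM of S100a8, S100g, S100a7a and S100a3 in each library, by group, with log axes for S100a8 and S100g and axes from 0 for the others. S100a8 is at 34.9 and 62.8 CPM in siCtr 0 d and at 1.34 to 9.14 CPM elsewhere, and S100g is at 0.540 to 3.61 CPM with TGFbeta and 21.5 to 30.9 CPM without it.

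Genes for known partners of S100 proteins were called in both directions. Of 33 listed, 26 were tested. TGFbeta raised 8 and lowered 2 in siCtr cells, with a median log2 change of 0.33, and raised 6 and lowered 3 in siIrf1 cells, with a median of -0.02. That is 38.5% of the 26 in siCtr cells, where 32.5% of all genes were called, and 34.6% in siIrf1 cells, where 21.3% were called. Anxa6, an annexin of membranes and endosomes, rose with TGFbeta by 1.56 in siIrf1 and 1.97 ± 0.182 in siCtr cells, and Anxa11 fell by 1.70 in siIrf1 and by 2.70 ± 0.240 in siCtr cells. Myh9, the non-muscle myosin heavy chain bound by S100a4, rose by 0.87 in siIrf1 (edgeR adjusted p = 0.0183) and 1.19 ± 0.273 in siCtr cells (edgeR adjusted p = 0.00815), and Myh10 rose by 0.77 in siIrf1 and 1.15 ± 0.194 in siCtr cells. Fgf1 fell by 0.67 in siIrf1 (edgeR adjusted p = 0.0296) and by 1.13 ± 0.237 in siCtr cells (edgeR adjusted p = 0.00473). Its call in siIrf1 cells was lost in 7 of the 10 fits that left out 1 library. Over those 10 fits the change ran from -0.85 to -0.51. Anxa2, the partner of S100a10, averaged 2127 ± 287 CPM in siIrf1 TGFbeta, 2042 ± 76.6 CPM in siCtr TGFbeta, 1595 ± 113 CPM in siIrf1 0 d and 2085 ± 586 CPM in siCtr 0 d (SD, n = 3, 2, 3 and 2), and was called in none of the 5 comparisons by edgeR. For siIrf1 against siCtr, 6 rose and 2 fell at 0 d, with a median of -0.07, and 3 rose and 3 fell with TGFbeta, with a median of 0.06. That is 30.8% at 0 d, against 31.8% of all genes, and 23.1% with TGFbeta, against 18.0% of all genes. Anxa1, the partner of S100a11, had 620 to 1191 CPM in siIrf1 TGFbeta, 423 to 664 CPM in siCtr TGFbeta, 522 to 632 CPM in siIrf1 0 d, and 99.2 to 305 CPM in siCtr 0 d. It rose with TGFbeta in siCtr cells by 1.43 ± 0.472 (edgeR adjusted p = 0.0425), with 0.68 in siIrf1 cells (edgeR adjusted p = 0.259), and was higher in siIrf1 than in siCtr cells at 0 d by 1.53 ± 0.446 (edgeR adjusted p = 0.0274). Without siCtr 0 d replicate 1 those calls ended, at 0.87 (edgeR adjusted p = 0.122) and 0.93 (edgeR adjusted p = 0.109), and without replicate 3 of that group the values were 2.57 and 2.63. Ahnak, which binds the complex of S100a10 and annexin A2, had 1388 to 3305 CPM in siIrf1 TGFbeta, 1214 to 2166 CPM in siCtr TGFbeta, 924 to 1113 CPM in siIrf1 0 d, and 89.7 to 640 CPM in siCtr 0 d. It rose with TGFbeta in siCtr cells by 2.21 ± 0.736 (edgeR adjusted p = 0.0433), with 1.32 in siIrf1 cells (edgeR adjusted p = 0.152), and was at 1.50 in siIrf1 against siCtr cells at 0 d (edgeR adjusted p = 0.115). Without siCtr 0 d replicate 1 the TGFbeta change was 1.44 (edgeR adjusted p = 0.0573), and without replicate 3 of that group it was 4.35. Leaving out single libraries of other groups also ended calls of both genes, among them siCtr TGFbeta replicate 2 for the TGFbeta change (edgeR adjusted p = 0.208 for Anxa1 and 0.192 for Ahnak). Cacybp, the S100a6 partner, was higher in siIrf1 cells by 1.87 ± 0.224 at 0 d (edgeR adjusted p = 0.000642) and by 0.90 ± 0.214 with TGFbeta (edgeR adjusted p = 0.0161). Its TGFbeta change was 0.00 in siIrf1 cells and 0.97 ± 0.232 in siCtr cells. Tlr4, a receptor for S100a8, was higher in siIrf1 cells by 2.71 ± 0.498 at 0 d and by 2.68 with TGFbeta. Plat and Plaur, of the plasminogen system, fell in siIrf1 cells with TGFbeta by 0.78 and 0.97. For the interaction edgeR called 0 of the 26, with 2 at an unadjusted p under 0.05, and DESeq2 called 2 of the 27 it tested, Anxa11 and Cacybp. Over all genes edgeR called 4.12% there, and DESeq2 called 1145 of 13926.

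Other genes for small EF-hand proteins were also called in both directions. Of 16 listed, 13 were tested, and TGFbeta raised 3 and lowered 2 in siCtr cells (median 0.37) and raised 2 and lowered 1 in siIrf1 cells (median 0.05), 38.5% and 23.1% of the 13 beside 32.5% and 21.3% of all genes. Chp1, a calcineurin-like protein, fell with TGFbeta by 1.35 in siIrf1 and by 1.28 ± 0.163 in siCtr cells, and Efhd2 rose by 1.02 in siIrf1 and 1.01 ± 0.284 in siCtr cells. Sri, or sorcin, rose by 0.66 with TGFbeta in siIrf1 cells. For siIrf1 against siCtr, 2 rose and 1 fell at 0 d (median 0.09), with Calu at 0.88 and Cib1 at -0.72. That is 23.1% of the 13, beside 31.8% of all genes. With TGFbeta, Sri alone was called, at 0.58 (median 0.06), and it was at -0.12 with the length and GC trend removed. That is 7.69% of the 13, beside 18.0% of all genes. For the interaction edgeR called 0 of the 13, with 2 at an unadjusted p under 0.05, and DESeq2 called 1. Over all genes edgeR called 4.12% there, and DESeq2 called 1145 of 13926.

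Over the 10 libraries, the members did not share 1 pattern. Pearson's r of log CPM between pairs of members ran from -0.40 (S100a4 and S100a16) to 0.79 (S100a4 and S100a11). It was 0.74 for S100a4 and S100a6 and 0.77 for S100a1 and S100a6. For S100a1 and S100a13, whose RefSeq spans overlap, it was 0.50. The points share 4 groups, library depth and composition by length and GC. Among the 9061 genes whose mean reached 10 CPM, those most like S100a6 were Slc50a1 (r = 0.989), a sugar transporter, and Atf4 (0.982), a stress-response transcription factor. For S100a4 they were 1810055G02Rik (0.979) and Reps1 (0.976), for S100a11 Stk24 (0.971) and Tagln2 (0.969), and for S100a10 Commd7 (0.935) and Prpf19 (0.898). For S100a13 they were Uvrag (0.992) and 1600014C10Rik (0.964), for S100a1 Vps52 (0.975) and Mgrn1 (0.969), for S100a16 Meaf6 (0.975) and Calm3 (0.973), and for S100a14 Mien1 (0.970) and Fn3krp (0.955).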

How the data were processed

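RNA of NMuMG/E9 cells was made into stranded libraries (TruSeq) and sequenced on a HiSeq 2500, per the labels' protocols. Per the submitters' processing notes, STAR was the aligner and the genome was mm10 (GRCm38). The version of STAR, the counting tool and its use of strand are not stated in the sources used here. The deposited table holds the authors' whole-number read counts per gene, not normalized, with a gene length. It has 24454 genes, of which 24374 took symbols from RefSeq GRCm38.p6 and 7 from GENCODE M21, and 73 had none (0.211 to 1.50% of a library's counts). Each of the 10 columns of counts entered the fit, and groups came from the siRNA and time labels. No 2 libraries were copies (chi-square per degree of freedom 24.3 to 305).

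Counts were fitted in R 4.3.3 with edgeR 4.0.16, by the robust quasi-likelihood F test after TMM scaling and filterByExpr. One model with a term per group took all libraries and kept 13135 genes. Its residual degrees of freedom were 6, the median prior degrees of freedom 4.15 and the common BCV 0.225. Benjamini-Hochberg adjustment ran over all genes of a comparison, and 0.05 was the threshold. SE was taken as the size of the log2 fold change over the root of F. CPM and TPM were computed from the counts and the table's gene lengths. Counting intervals are 95% and cover counting error only. Code was tested on simulated data. Alternatives were DESeq2 1.42.0, other scaling and filters, a replicate block, removal of a length and GC trend, and leaving out each library.

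The members and lists were chosen with earlier results of these data known, and TATAAA was searched after the sequences were seen. All 8 members are named. From each list up to 3 called genes with the smallest adjusted p were named per comparison, beside a few partners fixed by name, and 1 gene the rule names is not reported here. Replicate numbers paired the siIrf1 TGFbeta and siIrf1 0 d libraries (correlations of deviations 0.136, 0.448 and 0.302), a hint from the data, and over all 12 same-number pairs they ran from -0.39 to 0.45.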

Additional observations from a re-analysis of the deposited data

Results flagged for a closer look

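The test of the difference between the TGFbeta changes in siIrf1 and siCtr cells passed the threshold as fitted for 2 S100 genes. For S100a6 the interaction was 0.88 on the log2 scale (edgeR adjusted p = 0.0451), with a TGFbeta change of -0.14 in siIrf1 cells and -1.01 in siCtr cells. For S100g it was 2.34 (edgeR adjusted p = 0.00977), with -3.06 in siIrf1 cells and -5.40 in siCtr cells, where levels with TGFbeta were 2.33 to 3.61 CPM in siIrf1 and 0.540 to 0.933 CPM in siCtr libraries. The S100a6 call was lost without each of 9 of the 10 libraries in turn, with the replicate block (edgeR adjusted p = 0.0825) and with a length and GC trend removed (edgeR adjusted p = 0.0803). The S100g call was lost in 1 of the 10 fits that left out 1 library, over which its interaction ran from 1.88 to 2.68.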

How the results depend on the processing

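All alternatives were planned. Under all of them, left-out libraries included, S100a6 fell with TGFbeta in siCtr cells (-1.03 to -0.39) and in siIrf1 cells at 0 d (-1.35 to -0.86), as did S100a4 in siIrf1 cells at 0 d (-2.02 to -1.62). The number and identity of members called moved. For TGFbeta in siCtr cells it was 2 as fitted and 3 with the length and GC trend removed, with S100a10 and S100a11 called upward and S100a13 no longer called, and calls over all genes were 5613 with the trend removed, against 4267 as fitted. For TGFbeta in siIrf1 cells it was 1 as fitted and 3 with the length and GC trend removed, with or without the replicate block (all genes: 4220 with the trend removed, 4170 with block and trend, 2799 as fitted). For siIrf1 at 0 d it was 2, and 4 with the trend removed, with or without the block (all genes: 4780 with the trend removed, 4422 with block and trend, 4175 as fitted). For siIrf1 with TGFbeta it was 1, and 2 with a stricter filter, 3 with DESeq2, 4 with the trend removed and 5 with block and trend (all genes: 1872 of 11227 with the stricter filter, 3208 with DESeq2, 3585 with the trend removed, 3299 with block and trend, 2365 as fitted). For the interaction it was 1, and 0 without a filter, with the stricter filter, with the block and with block and trend, and 2 with DESeq2 (all genes: 501 of 18046 without a filter, 409 of 11227 with the stricter one, 522 with the block, 1145 with DESeq2, 1235 with the trend removed, 902 with block and trend, 541 as fitted). With the block it was 3 for TGFbeta in siCtr cells and 3 for siIrf1 at 0 d, against 2 and 2 without it (all genes: 4347 and 5233 with the block, 4267 and 4175 without it). The block changed no member's call for TGFbeta in siIrf1 cells. Leaving out 1 library gave 1 to 3, 0 to 2, 2 to 3, 0 to 2 and 0 to 1 members for TGFbeta in siCtr cells, TGFbeta in siIrf1 cells, siIrf1 at 0 d, siIrf1 with TGFbeta and the interaction.

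Signs turned, with the trend removed and then with block and trend, for TGFbeta in siCtr cells in S100a4 (0.23, 0.39), S100a10 (0.36, 0.43), S100a14 (0.13, 0.078) and Anxa2 (0.45, 0.54), for TGFbeta in siIrf1 cells in S100a6 (0.098, 0.094) and S100a13 (0.057, 0.073), for siIrf1 at 0 d in S100a10 (0.33, 0.35), S100a13 (0.088, 0.20) and S100a14 (0.26, 0.22), for siIrf1 with TGFbeta in Sri (-0.12, -0.15) and for the interaction in S100a16 (-0.11, -0.14). Values near 0 turned as well. S100a10 for siIrf1 at 0 d was 0.030 without a filter, 0.030 with the stricter one and 0.0024 with DESeq2, S100a16 was -0.014 with the block, and Anxa2 was 0.021 with block and trend. S100a1 for siIrf1 with TGFbeta was -0.0046 with RLE scaling, -0.035 without a filter, -0.049 with the stricter one, -0.0034 with DESeq2 and -5.93e-04 with the block, and Anxa2 was -0.015 with the block. Anxa2 for TGFbeta in siCtr cells was 0.014 with RLE scaling and 0.014 with DESeq2, 0.059 without a filter, 0.074 with the stricter one and 0.053 with the block. Cacybp for TGFbeta in siIrf1 cells was -7.65e-04 without a filter and -0.0097 with the block. The cause of these changes was not tested.

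Leaving out 1 library turned the sign, over the ranges given, of S100a4 (-0.27 to 0.12), S100a10 (-0.30 to 0.21) and Anxa2 (-0.17 to 0.33) for TGFbeta in siCtr cells, of S100a1 (-0.13 to 0.16), S100a13 (-0.19 to 0.0076) and Cacybp (-0.15 to 0.13) for TGFbeta in siIrf1 cells, of S100a10 (-0.21 to 0.31), S100a14 (-0.31 to 0.10), S100a16 (-0.046 to 0.28) and Fgf1 (-0.45 to 0.0037) for siIrf1 at 0 d, of S100a1 (-0.16 to 0.13) and Anxa2 (-0.043 to 0.15) for siIrf1 with TGFbeta, and of S100a11 (-0.12 to 0.27) for the interaction. S100a14, at 3.90 to 8.21 CPM, had the fewest counts of the members, and S100a9 and S100b rest on few counts. So does S100g in siCtr TGFbeta, with 29 and 28 counts.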
